A study of Mus musculus with 6 samples.

Results

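The genes described here encode the subunits of the mitochondrial respiratory chain and of ATP synthase. They were chosen by symbol alone: every gene whose mouse symbol began with Nduf followed by a, b, c, s or v and a number, with Uqcr, with Cox and a number in the range used for subunits (Cox4 to Cox8), or with Atp5, together with Sdha, Sdhb, Sdhc and Sdhd. This gave 87 of the 18305 genes in the tables, of which 38 belong to complex I, 4 to complex II, 8 to complex III, 20 to complex IV and 17 to complex V. Ndufa4 and Ndufa4l2 carry complex I names but are counted here under complex IV, where the NDUFA4 protein is now placed.

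RNA sequencing was done on cultured cells of KM mice, with 2 libraries in each of 3 groups. CiLC were mouse embryonic fibroblasts of passage 3 to 5 exposed to small molecules starting 24 hours after seeding; the compounds are not named in the labels. LC were Leydig cells, the androgen-producing cells that lie between the tubules of the testis, prepared from testis and grown for 0 to 1 passages. MEF were the embryonic fibroblasts themselves, from embryos of 12.5 or 13.5 days and also of passage 3 to 5. The study asked how closely CiLC resemble LC across the genome. Nothing in the labels tells if the 2 libraries of a group are from distinct cultures or mice; the p-values therefore reflect only how far these libraries spread, which may be technical. All 3 comparisons share libraries, and their values are given side by side without a test of likeness between them.

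Complexes I to IV pass electrons from NADH and succinate to oxygen and, except for complex II, move protons across the inner mitochondrial membrane; complex V uses the returning protons to make ATP. Most subunits are encoded in the nucleus and assembled with a small number of subunits encoded by mitochondrial DNA, which were not analysed here. In steroid-producing cells the same membrane also holds the enzyme that cleaves the cholesterol side chain. Several complex IV subunits exist as alternative isoforms from separate genes, expressed by tissue or by oxygen supply.

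Each library held 18.4 to 18.9 M estimated reads, and the 87 genes took 0.3916% to 0.4835% of them. Star, Cyp11a1, Hsd3b1 and Nr5a1, genes of steroid synthesis and its control, were highest in LC: Cyp11a1 stood at 12.8 and 11.8 CPM (counts scaled to a common library size) in CiLC, 718 and 693 CPM in LC, and 1.42 and 1.25 CPM in MEF. Cyp17a1 and Lhcgr, which also define Leydig cells, had at most 1 and 3 reads in any library, LC included. The 7 Sertoli cell markers summed to 35.26 and 37.88 CPM in CiLC, 304.3 and 304.5 CPM in LC, and 17.28 and 18.83 CPM in MEF; 6 of the 6 tested were higher in LC than in either other group. The 12 macrophage markers were abundant in all groups, at 11630 and 11800 CPM in CiLC, 4414 and 4757 CPM in LC, and 8415 and 8498 CPM in MEF. Single macrophage markers did not all follow that sum: 4 were higher and 6 lower in CiLC over MEF (median log2 fold change -0.30), with Lyz2 at 1.51 and Cx3cr1 at -2.87. The 6 smooth muscle markers summed to 143.9 and 146.6 CPM in CiLC, 953.8 and 968.2 CPM in LC, and 1570 and 1649 CPM in MEF. The part of these markers in the results below was not tested, and in bulk RNA fewer cells of a type and less RNA per cell cannot be told apart.

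Subunit mRNA was highest in LC. Summed over the 87 genes, the level was 4158 and 4277 CPM in CiLC, 5240 and 5008 CPM in LC, and 3956 and 3862 CPM in MEF. The groups did not overlap, with LC above CiLC and CiLC above MEF. The CiLC sum was 1.08 times that of MEF and 0.823 times that of LC, and the LC sum was 1.31 times that of MEF. With total counts in place of scaling factors, these ratios were 1.13, 0.955 and 1.18. With scaling factors but without Ndufa4l2 they were 1.08, 0.848 and 1.27. By complex, the same order of group means held in each of the 5 sums, but for complex II the libraries of CiLC, at 311.3 and 313.5 CPM, overlapped those of LC, at 329.6 and 312.2 CPM, and with total counts the complex II sum of CiLC was 1.13 times that of LC. For complexes I, III, IV and V, the CiLC sum with total counts was 0.971, 0.977, 0.85 and 0.973 times that of LC.

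**Figure D1:**
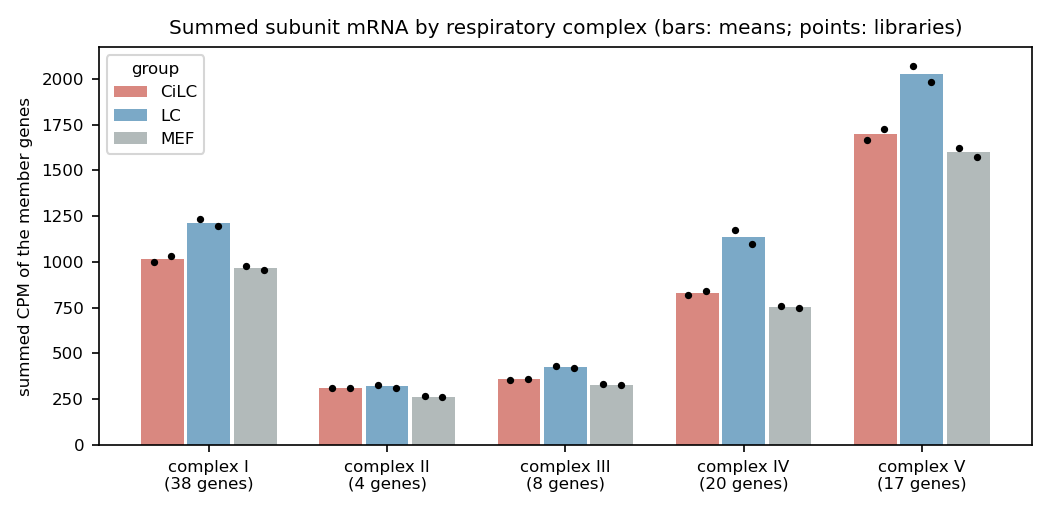
Summed CPM of the member genes of each respiratory complex (y axis, linear from 0), with bars for the mean of 2 libraries and points for the libraries, in CiLC, LC and MEF. The LC mean is highest in every complex (for complex II not with total counts). The gap between LC and MEF is widest in complex IV, at 1.51 times, but without Ndufa4l2 it is 1.31 times there, near the 1.3 of complex III.

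Gene by gene, 82 of the 87 passed the filter on low counts and were tested with edgeR's quasi-likelihood test, adjusted by the method of Benjamini and Hochberg over 14581 genes and called at 0.05; all adjusted p-values below are from this fit. In CiLC against MEF, 32 of the 82 were higher and 5 were lower, and the shares of all genes called in these directions were 26.1% and 25.5%. In CiLC against LC, 5 were higher and 47 lower, where the shares of all genes were 35% and 35.6%. In LC against MEF, 62 were higher and 2 lower, against 35.7% and 35% of all genes. The median log2 fold change of the 82 was 0.10 for CiLC over MEF, -0.21 for CiLC over LC and 0.36 for LC over MEF, while the medians of all genes tested were 0.01, 0.00 and -0.01. DESeq2 called 21 higher and 1 lower in CiLC over MEF, and 2 higher in CiLC over LC. With 1 library left out, the 5 lower in CiLC over MEF became 1 to 4, the fewest without CiLC 2, and 2 each without CiLC 1, MEF 1 or MEF 2; the 5 higher in CiLC over LC became 2 without CiLC 1 or LC 2, and the 2 lower in LC over MEF became 1 without LC 2 or MEF 2. The counts rest on a very small spread between libraries: with an assumed biological coefficient of variation of 0.1 they were 8 and 1, 1 and 22, and 41 and 1, and with 0.4 they were 0 and 0, 1 and 3, and 2 and 1. The differences were small for most: 5, 7 and 16 of the 82 differed by at least 1.5-fold in the 3 comparisons, or 6.1%, 8.54% and 19.5%, against 24.7%, 40.9% and 41.8% of all genes.

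The counts of CiLC over LC and LC over MEF rest on the scaling of the libraries. With total counts in place of scaling factors, 13 members were higher in CiLC than in LC and 22 lower, and 45 were higher and 4 lower in LC than in MEF; among all genes that setting called 50.2% higher and 25.5% lower in the first case, and 28.3% higher and 44.8% lower in the second. It put the median of all genes at 0.219 for CiLC over LC and -0.156 for LC over MEF. The median of the members for CiLC over LC was then 0.01, the opposite sign. Relative to the median of all genes the members stood at -0.21 and 0.37, the same as with scaling factors, and for CiLC over MEF at 0.10 in both settings. A change of scaling factors shifts all genes alike, so these relative values could not differ between the settings. They do not show which scaling is right.

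**Figure D2:**
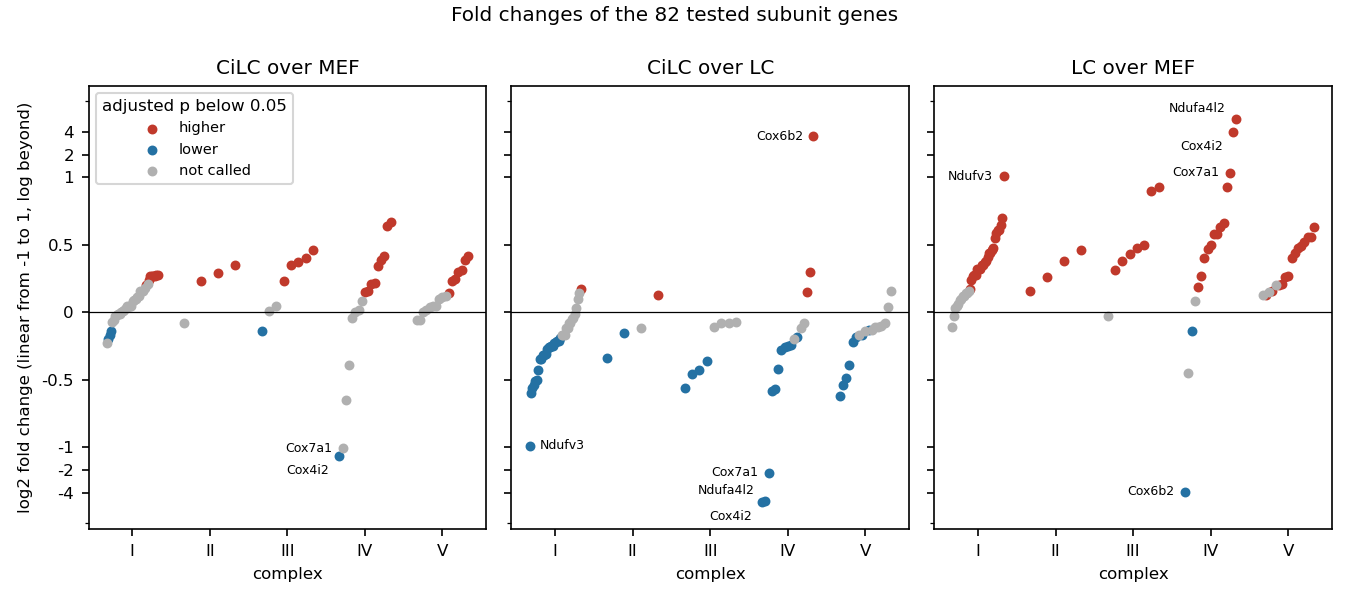
Log2 fold changes of the 82 tested genes by complex for CiLC over MEF, CiLC over LC and LC over MEF (y axis linear between -1 and 1 and logarithmic beyond); each point is a gene, red where called higher, blue where called lower and grey where not called. Most LC over MEF points lie above 0 and most CiLC over LC points below it, and the widest differences, those of Ndufa4l2, Cox4i2 and Cox6b2, are in complex IV.

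Where CiLC lay relative to both other groups was counted from the 6 libraries. In 28 of the 82 genes both CiLC libraries lay between the LC and the MEF libraries without overlap. Among all 14581 genes tested this held for 4053, or 27.8%. CiLC lay above both groups in 8 of the 82 and below both in 11, against 2912 (20%) and 2599 (17.8%) of the 14581. In the remaining 35 the libraries overlapped. These positions were counted with scaling factors only. With total counts Uqcrb and Atp5l, both counted as between, had log2 fold changes above 0 for CiLC over LC (0.13 and 0.08). Ndufb10, Ndufb11, Ndufs1, Sdha, Cox7a2l, Ndufa4, Atp5e and Atp5h were the 8 above both; of these, Ndufs1, Sdha, Cox7a2l and Ndufa4 were called higher in both comparisons.

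**Figure D3:**
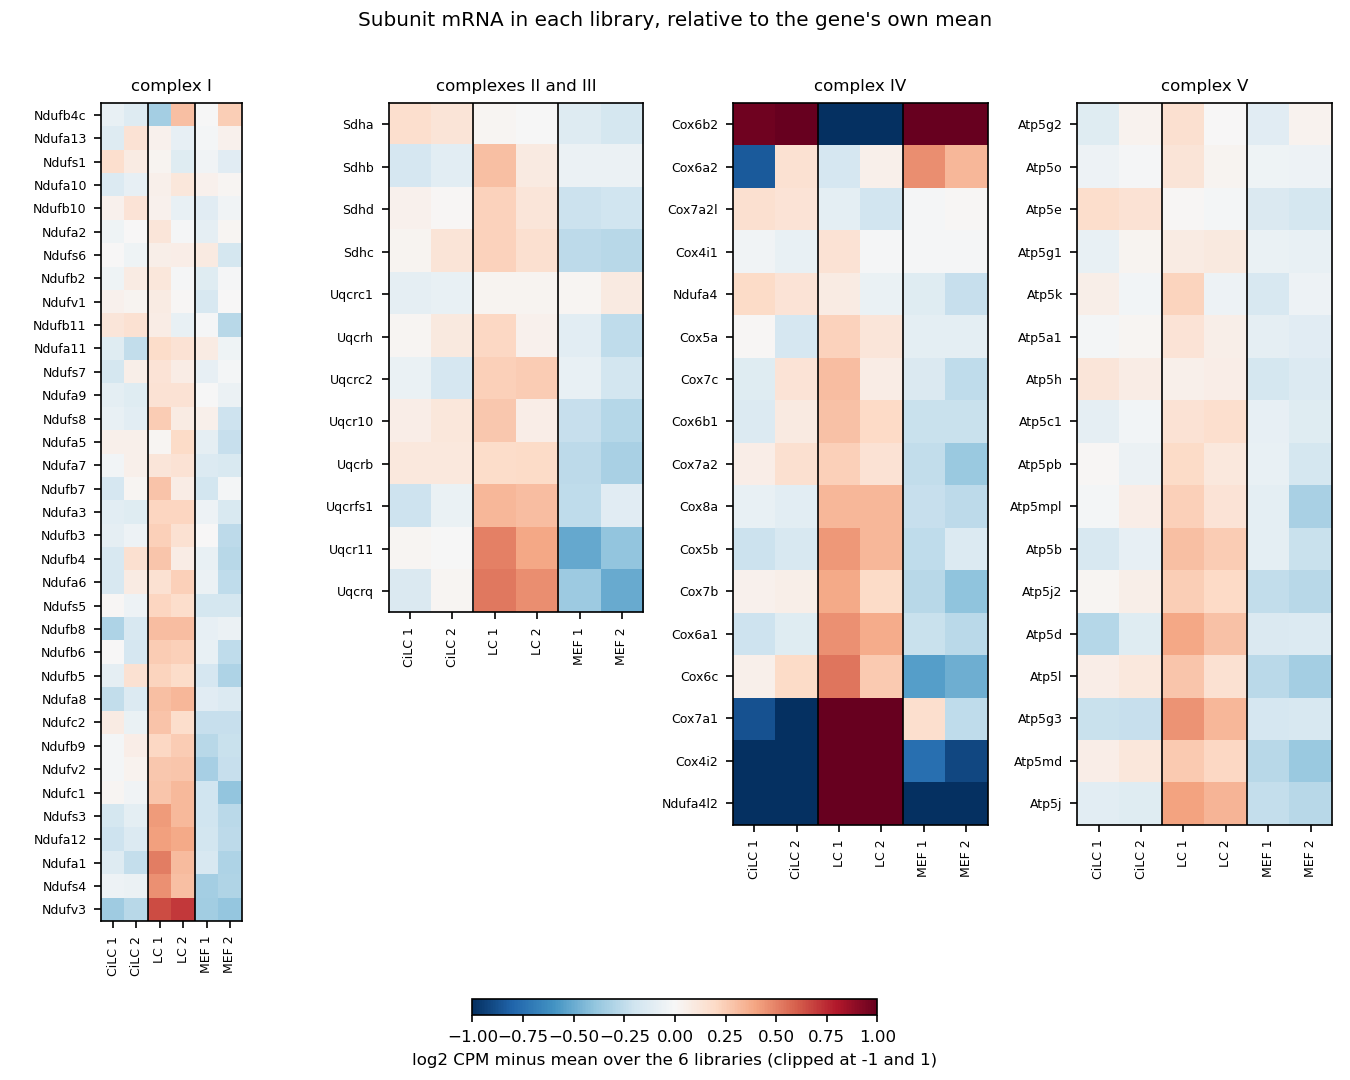
Log2 CPM of the tested genes, without 1 gene, in each library minus its mean over the 6 libraries, from blue (lower) to red (higher), clipped at -1 and 1, in columns for CiLC, LC and MEF. Within each complex the genes are ordered by the difference of LC from MEF; the LC columns are red for most genes, and Ndufs1, Sdha, Cox7a2l and Ndufa4 are reddest in CiLC.

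Complex I takes electrons from NADH and is the largest of the complexes. In CiLC against MEF, 8 of its 36 tested genes were higher and 3 lower (median log2 fold change 0.07), or 22.2% and 8.33%, against 26.1% and 25.5% of all genes, so that higher calls were no more frequent than over all genes. In CiLC against LC, 1 was higher and 22 were lower (median -0.23), and in LC against MEF 24 were higher and none of the 36 lower (median 0.32). These are 2.78% and 61.1%, and 66.7% and 0%. All genes gave 35% and 35.6%, and 35.7% and 35%. The 7 nuclear genes of the catalytic core were called in 2 cases higher in CiLC than in MEF, in 1 case higher and 4 lower than in LC, and in 4 cases higher in LC than in MEF. As shares of the 7 these are 28.6%, 14.3% and 57.1%, and 57.1%. All genes gave 26.1%, 35% and 35.6%, and 35.7%, so the higher calls of CiLC over MEF were near the share of all genes.

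Ndufv3, an accessory subunit of the arm that binds NADH, differed most. Its level was 44.0 and 46.5 CPM in CiLC, 88.4 and 91.8 CPM in LC, and 44.2 and 43.1 CPM in MEF. Both LC libraries lay far above the other 4, and CiLC and MEF overlapped. The log2 fold change was -0.99 ± 0.056 (SE) for CiLC over LC (adjusted p = 1.41e-13), 1.04 ± 0.056 for LC over MEF (adjusted p = 5.94e-14) and 0.05 for CiLC over MEF (adjusted p = 0.511). Per kb of transcript it was also the most abundant complex I member in all 3 groups, at 70.1 CPM per kb in CiLC, 140 in LC and 67.7 in MEF. Lowest among the tested complex I members with a length stood Ndufb2, at 4.32, 4.43 and 4.07 CPM per kb, for which no comparison was called. This rank rests on the 2.41 kb taken as its length, against 0.57 kb for Ndufb6 and 1.41 kb for Ndufb8, and its exons overlap Braf.

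Ndufa12 and Ndufa1, 2 further accessory subunits, had the next largest differences from LC. Ndufa12 stood at 25.1 and 26.4 CPM in CiLC, 38.4 and 37.6 CPM in LC, and 25.5 and 24.2 CPM in MEF. Ndufa1 stood at 9.11 and 8.42 CPM in CiLC, 14.2 and 12.4 CPM in LC, and 8.91 and 8.02 CPM in MEF. In both, CiLC overlapped MEF and lay below LC, with log2 fold changes of -0.56 and -0.60 for CiLC over LC. Ndufs4, an accessory subunit needed for stable complex I, lay between: 18.6 and 18.5 CPM in CiLC, 26.4 and 23.7 CPM in LC, and 15.2 and 15.6 CPM in MEF, with a log2 fold change of 0.70 for LC over MEF.

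Among the core subunits, Ndufs1, which carries iron-sulfur clusters, stood above both other groups in CiLC. It had 65.6 and 61.8 CPM in CiLC, 59.6 and 53.9 CPM in LC, and 57.1 and 54 CPM in MEF, and was called higher in CiLC than in LC (log2 fold change 0.17) and than in MEF (0.20); leaving out CiLC 1 ended both calls, LC 2 the first and MEF 2 the second. Ndufv2 rose by 0.28 on the log2 scale in CiLC over MEF and fell by 0.27 in CiLC over LC. Ndufv1, which binds NADH, and Ndufs7 were called in none of the 3 comparisons, with log2 fold changes between -0.17 and 0.16. Ndufs8 was called lower in CiLC than in LC (-0.26) and higher in LC than in MEF (0.24), and both calls were lost when 1 library was left out, for the first CiLC 1, CiLC 2 or LC 1 and for the second CiLC 1, CiLC 2, LC 1 or MEF 2.

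Besides Ndufv2, the accessory subunits Ndufc1 (0.28) and Ndufb11 (0.27) led the complex I genes higher in CiLC than in MEF; the call of Ndufc1 was lost without CiLC 1 or MEF 2 and that of Ndufb11 without MEF 2. The 3 lower ones were Ndufa11 (-0.20), Ndufb8 (-0.17) and Ndufa10 (-0.14). None of the 3 calls survived every omission of 1 library: Ndufa10 was lost without CiLC 1, CiLC 2, MEF 1 or MEF 2, Ndufa11 without CiLC 2, LC 1, LC 2 or MEF 1, and Ndufb8 without CiLC 1 or any LC or MEF library.

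Complex II, succinate dehydrogenase, joins the tricarboxylic acid cycle to the chain and has no subunit from mitochondrial DNA. Sdha, its flavoprotein, stood above both other groups in CiLC: 153 and 149 CPM in CiLC, 138 and 136 CPM in LC, and 125 and 121 CPM in MEF. The 3 groups did not overlap. The log2 fold change was 0.29 ± 0.047 for CiLC over MEF (adjusted p = 1.65e-05), 0.13 ± 0.047 for CiLC over LC (adjusted p = 0.0151) and 0.16 ± 0.048 for LC over MEF (adjusted p = 0.00571). Without CiLC 1 or LC 2 the difference from LC was no longer called, and with upper quartile, quantile or total-count scaling that of LC from MEF was no longer called.

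The membrane anchors Sdhc and Sdhd were also higher in CiLC than in MEF, by 0.35 and 0.23 on the log2 scale. Sdhc had 74.9 and 80.3 CPM in CiLC, 86.2 and 82.1 CPM in LC, and 61.2 and 60.7 CPM in MEF. Against LC, the log2 fold change of Sdhc was -0.12 and was not called (adjusted p = 0.0573), while Sdhd was called lower (-0.15), a call lost without CiLC 1, CiLC 2 or LC 1 and a value of 0.07 with total counts. The iron-sulfur subunit Sdhb did not share this pattern: it had 39.7 and 41.3 CPM in CiLC, 55 and 47.3 CPM in LC, and 42.8 CPM in both MEF libraries, with a log2 fold change of -0.34 for CiLC over LC (adjusted p = 0.000122) and -0.08 for CiLC over MEF (adjusted p = 0.341). All 4 genes were higher in LC than in MEF; the call of Sdhb was lost without LC 1.

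Complex III carries electrons from ubiquinol to cytochrome c. Uqcr11, Uqcrb, Uqcrq, Uqcr10 and Uqcrh, the small subunits, were all called higher in CiLC than in MEF, by 0.46, 0.40, 0.37, 0.35 and 0.23 on the log2 scale. Of the large ones, the core protein Uqcrc1 was called lower in CiLC than in MEF (-0.14, a call lost without CiLC 1, CiLC 2 or MEF 2), and the core protein Uqcrc2 (0.01) and the Rieske iron-sulfur protein Uqcrfs1 (0.05) were not called. The call of Uqcrh was lost without CiLC 2 or MEF 2. The 5 small subunits all have transcripts under 0.7 kb, a class in which 18 of 37 members were called higher in CiLC than in MEF, and the difference between small and large subunits was not tested.

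Uqcr11 had 22.6 and 22.2 CPM in CiLC, 31.5 and 29.1 CPM in LC, and 15.6 and 16.9 CPM in MEF. Uqcrq had 30.2 and 33.8 CPM in CiLC, 48.1 and 46 CPM in LC, and 25.9 and 23.5 CPM in MEF. In both, CiLC lay between the other groups without overlap. Their log2 fold changes of LC over MEF, 0.90 and 0.93, were the largest of the complex, and those of CiLC over LC were -0.43 and -0.56. Uqcrfs1 was also lower in CiLC than in LC (-0.46, adjusted p = 2.12e-06), at 32.6 and 36 CPM in CiLC, 47.4 and 46.7 CPM in LC, and 31.6 and 34.8 CPM in MEF.

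Over the whole complex, CiLC against MEF gave 5 genes higher and 1 lower of 8, CiLC against LC none of the 8 higher and 4 lower, and LC against MEF 7 higher and none of the 8 lower. As shares these are 62.5% and 12.5%, 0% and 50%, and 87.5% and 0%. All genes gave 26.1% and 25.5%, 35% and 35.6%, and 35.7% and 35%. The gene not called in LC against MEF was Uqcrc1, at 82.6 and 83.8 CPM in CiLC, 89.9 and 89.7 CPM in LC, and 89.2 and 94 CPM in MEF.

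Complex IV, cytochrome c oxidase, held the largest differences of the whole set, and they lay in its alternative isoforms. Ndufa4l2 (NCBI gene 407790), a relative of Ndufa4 known to be induced when oxygen is low and to be abundant in pericytes, the mural cells of small vessels, had 4.27 and 4.21 CPM in CiLC, 153 and 155 CPM in LC, and 2.78 and 2.55 CPM in MEF. The LC libraries stood far above all others, and both CiLC libraries lay slightly above MEF. The level was 57.7-fold higher in LC than in MEF (log2 fold change 5.85 ± 0.13, adjusted p = 7.56e-25) and 36.3-fold lower in CiLC than in LC (-5.18 ± 0.11, adjusted p = 1.71e-24), while CiLC exceeded MEF 1.59-fold (0.67 ± 0.17, adjusted p = 0.00146).

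Ndufa4 (NCBI gene 17992) itself varied little. It had 53.5 and 51.3 CPM in CiLC, 49.6 and 44.7 CPM in LC, and 43.1 and 39.9 CPM in MEF. Per kb of transcript, Ndufa4l2 made up 3.78% and 3.88% of the pair in CiLC, 60.3% and 63.1% in LC, and 3.08% and 3.05% in MEF, so that in LC it was the more abundant of the pair, at 165 against 103 CPM per kb. Without Ndufa4l2, the complex IV sum was 827.2 ± 14.8 CPM in CiLC, 981.4 ± 55.5 CPM in LC and 750.5 ± 7.53 CPM in MEF (SD, n = 2 each), and the ratio of LC to MEF was 1.31 in place of 1.51. Complex III had a ratio of 1.3, so the wider gap of complex IV rests on this gene. An exon of Ndufa4l2 overlaps Shmt2 in the annotation. Shmt2 had 68.2 and 72.4 CPM in CiLC, 121 and 115 CPM in LC, and 72.2 and 69.9 CPM in MEF, and all values of Ndufa4l2 were whole numbers.

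Cox4i2 (NCBI gene 84682), the isoform of the subunit Cox4 known from lung, from low oxygen and likewise from pericytes, followed the same order in LC. It had 0.662 and 0.254 CPM in CiLC, 18.6 and 17.7 CPM in LC, and 1.21 and 1.09 CPM in MEF, or 13 and 4.98, 320 and 300, and 23 and 21 estimated reads. LC was again far above the rest, but here CiLC lay below MEF. The log2 fold change was -5.29 ± 0.35 for CiLC over LC (adjusted p = 2.02e-16), 3.97 ± 0.23 for LC over MEF (adjusted p = 1.52e-15) and -1.32 ± 0.40 for CiLC over MEF (adjusted p = 0.0057). The last rests on few reads: with 1 library left out it ranged from -2.15 to -0.79, and without CiLC 2 it was not called.

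Cox4i1, the common isoform, had 135 and 131 CPM in CiLC, 153 and 137 CPM in LC, and 137 CPM in both MEF libraries, and was called in none of the 3 comparisons. Per kb, Cox4i2 was 0.505% and 0.2% of the Cox4 pair in CiLC, 11.2% and 11.8% in LC, and 0.905% and 0.816% in MEF. Markers of mural and vessel cells differed among themselves. The 6 endothelial markers summed to 13.49 and 13.23 CPM in CiLC, 74.19 and 82.72 CPM in LC, and 28.65 and 28.6 CPM in MEF, the same order as Cox4i2, with 5 of the 6 lower and 1 higher in CiLC than in LC, and 3 higher and 1 lower in LC than in MEF. Of the 6 smooth muscle and peritubular markers, all 6 were lower in CiLC than in LC, and 2 were higher and 4 lower in LC than in MEF, where Des, desmin, was 1.43 higher on the log2 scale. Pdgfrb, a receptor of fibroblasts and pericytes listed here among the fibroblast markers, had 249 and 240 CPM in CiLC, 239 and 238 CPM in LC, and 741 and 748 CPM in MEF. The part of these cells in the levels of Ndufa4l2 and Cox4i2 was not tested.

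Cox7a1, the heart and muscle isoform of Cox7a, was also highest in LC, at low levels: 0.407 and 0.304 CPM in CiLC, 1.74 and 1.53 CPM in LC, and 0.839 and 0.625 CPM in MEF. It was lower in CiLC than in LC (log2 fold change -2.18, adjusted p = 6.32e-05) and higher in LC than in MEF (1.15, adjusted p = 0.00672, lost without LC 1 or MEF 2), and its difference between CiLC and MEF was not called (-1.03, adjusted p = 0.0747). Of the 9 striated muscle markers, the summed level was at most 4.985 CPM in any library.

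Cox6b2 (NCBI gene 333182), the testis isoform of Cox6b, ran in the opposite direction. It had 4.12 and 4.61 CPM in CiLC, 0.29 and 0.471 CPM in LC, and 5.82 and 5.62 CPM in MEF; the LC values stand on 5 and 8 reads. Both fibroblast-derived groups lay above the testis-derived cells, in which the testis isoform was nearly absent. The log2 fold change was 3.50 ± 0.39 for CiLC over LC (adjusted p = 3.12e-10), -3.89 ± 0.39 for LC over MEF (adjusted p = 1.78e-11) and -0.39 ± 0.17 for CiLC over MEF, which was not called (adjusted p = 0.0533). In mouse and human testis this isoform is known from the germ cells. The 9 germ cell markers summed to 6.609 and 7.309 CPM in CiLC, 3.596 and 4.42 CPM in LC, and 3.404 and 3.282 CPM in MEF.

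**Figure D4:**
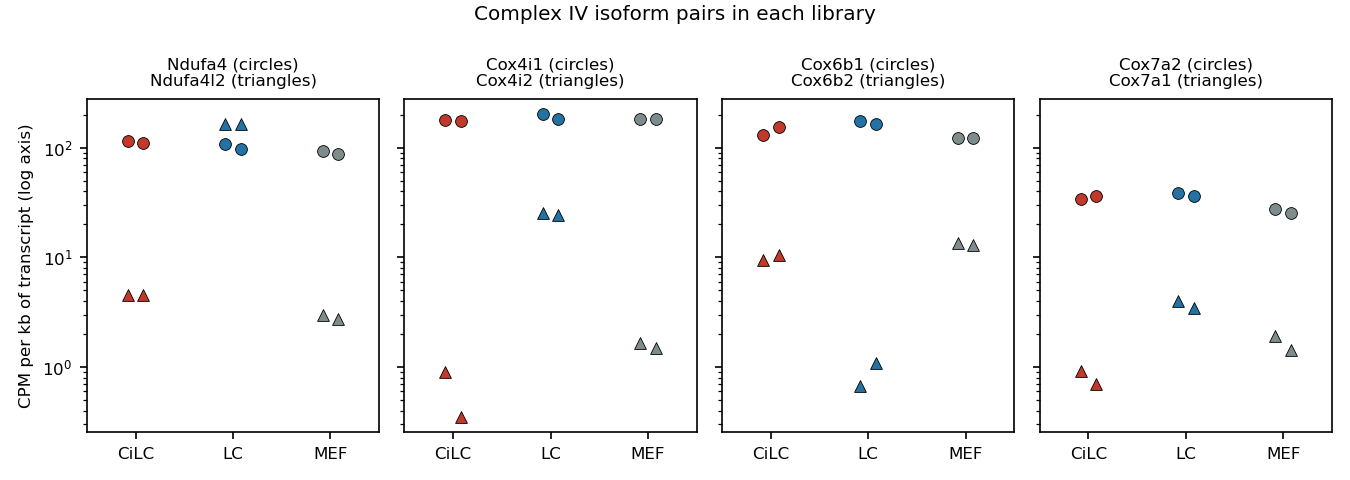
CPM per kb of transcript (log axis) of 4 complex IV pairs in each library of CiLC, LC and MEF, with the common form as circles and the alternative form as triangles. Ndufa4l2 exceeds Ndufa4 in LC alone, Cox4i2 and Cox7a1 are highest in LC while staying below their partners, and Cox6b2 is lowest in LC.

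The remaining isoforms were at the edge of detection. Cox6a2, the muscle form of Cox6a, had 5 to 12 reads in every library and was called in no comparison. Cox7b2, Cox8b and Cox8c had at most 1 read in any library and were not tested.

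Of the 12 complex IV genes outside the alternative isoforms, against MEF 8 were higher in CiLC and none of the 12 lower, 2 were higher in CiLC than in LC and 8 lower, and 10 were higher and 1 lower in LC than in MEF. As shares these are 66.7% and 0%, 16.7% and 66.7%, and 83.3% and 8.33%. All genes gave 26.1% and 25.5%, 35% and 35.6%, and 35.7% and 35%. Cox6c, a small subunit, showed the largest difference between CiLC and MEF among the 12: 31.4 and 34.7 CPM in CiLC, 44 and 36.4 CPM in LC, and 20.7 and 21.7 CPM in MEF. CiLC lay between the other groups without overlap, and the log2 fold change was 0.64 ± 0.086 over MEF (adjusted p = 1.15e-06) and -0.28 ± 0.078 over LC (adjusted p = 0.00276, lost without CiLC 1 or LC 1). Cox7a2 and Cox7b, also small subunits, were higher in CiLC than in MEF by 0.42 and 0.39.

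Cox6a1, per kb the most abundant complex IV gene in each group, had 114 and 121 CPM in CiLC, 181 and 170 CPM in LC, and 113 and 109 CPM in MEF. CiLC lay near MEF and far from LC, with a log2 fold change of -0.58 ± 0.051 over LC (adjusted p = 6.20e-10) and 0.08 over MEF (adjusted p = 0.193). Cox5b and Cox5a, subunits of the matrix side, were likewise lower in CiLC than in LC (-0.57 and -0.25, with the call of Cox5a lost without CiLC 2) and not called between CiLC and MEF (0.00 and 0.02). Cox8a was lower in CiLC than in LC (-0.42) and higher than in MEF (0.16, lost without CiLC 1 or MEF 2), as was Cox6b1 (-0.26, lost without CiLC 1; 0.21, lost without CiLC 2 or MEF 2).

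Cox7a2l, which takes part in joining complexes III and IV into supercomplexes, was the exception in both directions. It had 115 and 113 CPM in CiLC, 96.1 and 90.1 CPM in LC, and 102 and 104 CPM in MEF. CiLC stood above both groups and LC below MEF, with a log2 fold change of 0.30 ± 0.051 for CiLC over LC (adjusted p = 1.90e-05), 0.15 ± 0.05 for CiLC over MEF (adjusted p = 0.0143) and -0.14 ± 0.051 for LC over MEF (adjusted p = 0.0153). The last was lost without LC 2 or MEF 2 and the second without CiLC 1, CiLC 2 or MEF 1. Together with Cox6b2 it was the only tested member called lower in LC than in MEF. Ndufa4 shared its place above both groups, with log2 fold changes of 0.34 over MEF and 0.15 over LC; the second was lost without CiLC 1 or LC 2.

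Complex V consists of a catalytic head, a ring of c subunits in the membrane, and the stalk and membrane parts that hold them together. The table uses the older gene symbols that begin with Atp5. Of the 17 genes, against MEF 7 were higher in CiLC and none of the 17 lower, none higher and 8 lower in CiLC than in LC, and 14 higher and none lower in LC than in MEF. As shares of the 17 higher and lower these are 41.2% and 0% in CiLC over MEF and 0% and 47.1% in CiLC over LC, where genome-wide shares were 26.1% and 25.5%, and 35% and 35.6%. In LC over MEF they are 82.4% and 0%, against 35.7% and 35% of all genes. The 7 comprised 6 of the 9 stalk and membrane genes, 1 of the 5 head genes and none of the 3 c-ring genes, and differences between these roles were not tested. The calls of Atp5j (0.14) and Atp5mpl (0.23, adjusted p = 0.0499), which are among the 6, were lost when 1 library was left out, for Atp5j any CiLC or MEF library and for Atp5mpl any library but MEF 1.

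By CPM per kb, Atp5b, the catalytic beta subunit, led the set in each group, at 234 in CiLC, 308 in LC and 228 in MEF. In LC Cox6a1 was nearly level with it at 307, against 206 in CiLC and 194 in MEF. Atp5b had 437 and 461 CPM in CiLC, 600 and 581 CPM in LC, and 456 and 417 CPM in MEF. CiLC overlapped MEF and lay below LC, with a log2 fold change of -0.39 ± 0.049 over LC (adjusted p = 2.25e-07) and 0.04 over MEF (adjusted p = 0.513). Atp5d, the delta subunit of the head, followed it (-0.54 over LC, -0.06 over MEF). Atp5a1 and Atp5c1, the alpha and gamma subunits, were not called between CiLC and MEF (0.11 and 0.05); over LC, Atp5c1 was lower (-0.22), and Atp5a1 was not called (-0.10, adjusted p = 0.0644) and was above 0 under total counts (0.12) and quantile normalization (0.20). Atp5e, the epsilon subunit, was higher in CiLC than in MEF (0.31) and not called against LC (0.16).

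The c ring is made of identical c subunits that 3 genes encode with different leader peptides. Atp5g3 had 61.3 and 61 CPM in CiLC, 97.8 and 90.3 CPM in LC, and 63.6 and 64.1 CPM in MEF, a log2 fold change of -0.62 ± 0.054 for CiLC over LC (adjusted p = 5.23e-10) and 0.56 for LC over MEF. Atp5g1 and Atp5g2 had -0.11 and -0.13 for CiLC over LC, neither called, and Atp5g1 alone of them was called in LC over MEF (0.16, lost without LC 2, MEF 1 or MEF 2). Per kb, Atp5g3 supplied 39% and 36.4% of c-ring mRNA in CiLC, 45.9% and 46.1% in LC, and 39.7% and 37.9% in MEF. These shares rest on the lengths used, 2.68 kb for Atp5g1, 0.586 kb for Atp5g2 and 0.718 kb for Atp5g3.

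Atp5md and Atp5l, small membrane subunits, led the genes higher in CiLC than in MEF, at 0.42 and 0.39. Atp5md had 27.3 and 28.3 CPM in CiLC, 31.3 and 30.1 CPM in LC, and 21.5 and 20.2 CPM in MEF. Atp5l had 64.4 and 66.1 CPM in CiLC, 74.6 and 68.3 CPM in LC, and 51 and 48.5 CPM in MEF. In both, CiLC lay between the groups and nearer to LC. Atp5j, the stalk subunit F6, was lower in CiLC than in LC (-0.49) and had the largest difference of LC from MEF in the complex (0.63). Atpif1, the inhibitor of the enzyme and not itself a member by its symbol, had 47.2 and 52.4 CPM in CiLC, 46.9 and 42.6 CPM in LC, and 45 and 44.6 CPM in MEF, and was called only in CiLC over LC (0.15, adjusted p = 0.039).

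Start-site sequences were read from the RefSeq promoter table (GRCm38.p6), which held 69 of the 87 genes, and 5 are shown because their genes took different courses above. Each is the 250 bases before the start, 5′ to 3′, with matches to the searched motifs in capitals. The motifs, looked for on both strands, were GCGCATGCG of NRF1, ACTTCCGG of GABPA and its ETS relatives, AAGATGGCG of YY1, GGGGCGGGG of Sp1 and TGACGTCA of CREB. The first 3 factors are known regulators of respiratory genes.

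Cox6a1 (chr5:115348959-115349208, minus strand; NRF1 letters): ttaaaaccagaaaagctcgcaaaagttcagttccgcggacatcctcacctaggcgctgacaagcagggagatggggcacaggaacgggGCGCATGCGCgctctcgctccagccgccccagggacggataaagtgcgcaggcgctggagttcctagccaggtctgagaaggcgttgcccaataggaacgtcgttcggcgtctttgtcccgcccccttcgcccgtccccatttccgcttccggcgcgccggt

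Atp5l (chr9:44920743-44920992, minus strand; NRF1 letters): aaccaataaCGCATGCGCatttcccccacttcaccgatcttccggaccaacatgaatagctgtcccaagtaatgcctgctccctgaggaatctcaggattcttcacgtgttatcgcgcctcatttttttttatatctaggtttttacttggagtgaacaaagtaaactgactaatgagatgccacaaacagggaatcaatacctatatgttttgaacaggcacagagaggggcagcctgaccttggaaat

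Ndufa11 (chr17:56717512-56717761, plus strand; CREB and NRF1 letters): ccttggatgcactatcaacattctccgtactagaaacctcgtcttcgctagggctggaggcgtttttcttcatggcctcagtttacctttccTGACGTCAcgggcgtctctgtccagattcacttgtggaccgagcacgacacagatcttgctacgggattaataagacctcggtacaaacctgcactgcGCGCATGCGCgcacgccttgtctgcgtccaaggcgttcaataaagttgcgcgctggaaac

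Uqcr11 (chr10:80406822-80407071, minus strand; ETS letters, reverse strand): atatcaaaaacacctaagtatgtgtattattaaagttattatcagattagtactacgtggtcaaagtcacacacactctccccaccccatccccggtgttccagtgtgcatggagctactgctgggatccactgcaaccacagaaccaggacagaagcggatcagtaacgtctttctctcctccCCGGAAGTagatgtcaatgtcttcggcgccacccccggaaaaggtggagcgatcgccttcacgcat

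Cox6b2 (chr7:4753095-4753344, minus strand; Sp1 letters): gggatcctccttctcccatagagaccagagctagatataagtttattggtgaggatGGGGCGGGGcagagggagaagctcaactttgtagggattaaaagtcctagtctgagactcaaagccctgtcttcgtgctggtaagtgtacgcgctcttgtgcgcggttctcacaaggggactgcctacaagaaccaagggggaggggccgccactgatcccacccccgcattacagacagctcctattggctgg

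NRF1 letters lay in 6 of the 69 promoters (8.7%) and in 2.19% of 17491 genes with a promoter in the table, in Atp5g2, Atp5k, Atp5l, Cox6a1, Ndufa11 and Ndufa8. The shares were 4.35% and 4.26% for the ETS letters, 1.45% and 0.84% for those of YY1, 13% and 15.8% for Sp1, and 5.8% and 2.2% for CREB. The 6 genes with NRF1 letters did not share a course: in CiLC against MEF, Atp5l was higher (0.39), Ndufa11 lower (-0.20), and Cox6a1 (0.08), Ndufa8 (-0.06), Atp5k (0.12) and Atp5g2 (-0.00) were not called. A match is a run of letters and not a site shown to be bound.

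Members were also divided by transcript length. Among the members with a transcript under 0.7 kb, 18 of 37 were called higher in CiLC than in MEF and 1 lower, the median being 0.16; among those of 0.7 kb or more, 14 of 44 were called higher and 4 lower, the median being 0.05. In LC against MEF the medians were 0.40 and 0.33, and in CiLC against LC -0.18 and -0.23. Of all 363 tested genes under 0.7 kb, the 37 members included, 26.4% were higher and 11.6% lower in CiLC over MEF (median 0.06), where the short members had 48.6% and 2.7% and all genes of 0.7 kb or more had 26.4% and 25.8%. Of the same 363, 48.8% were higher and 12.9% lower in LC than in MEF (median 0.21), and 16.5% were higher in CiLC than in LC and 45.2% lower (median -0.18). The part of transcript length in the results was not tested.

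Assembly factors build the complexes without staying in them. Of 17 tested assembly factors of complex I, 3 were higher and 3 lower in LC than in MEF, and 4 were higher in CiLC than in LC and 2 lower, where the subunits of that complex gave 24 and 0, and 1 and 22. The shares of the factors, 17.6% and 17.6%, and 23.5% and 11.8%, were below those of all genes, 35.7% and 35%, and 35% and 35.6%. Ndufaf4 led those higher in CiLC than in LC (0.46), Ecsit those lower (-0.38), and Dmac1 was lower in both CiLC (-0.42) and LC (-0.57) than in MEF. Tmem186 led those higher in CiLC than in MEF (0.36). The 4 complex II factors gave 1 call each in CiLC against LC and in LC against MEF, Sdhaf2 in both cases (-0.29 and 0.36). This is 25% of them, against 35.6% of all genes lower and 35.7% higher. For the 6 complex III factors, 2 were higher and 2 lower in each of those comparisons, or 33.3% each way, near the shares of all genes. Ttc19 led them, being lower in CiLC than in LC (-0.74) and higher in LC than in MEF (0.80). Uqcc1 was higher in CiLC than in LC (0.32) and Bcs1l lower in LC than in MEF (-0.30). Of the 5 complex V factors, Oxa1l, which inserts proteins into the inner membrane, was lower in CiLC (-0.21) and LC (-0.29) than in MEF. Atpaf1, which assembles the head, was higher in CiLC than in LC (0.43) and Fmc1 lower (-0.72), and Tmem70 was higher in LC than in MEF (0.18).

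Of 26 tested assembly factors of complex IV, against MEF 8 were higher in CiLC and none of the 26 lower, 7 higher and 9 lower in CiLC than in LC, and 11 higher and 5 lower in LC than in MEF. In CiLC over MEF 30.8% were higher, against 26.1% of all genes, and in CiLC over LC 26.9% were higher and 34.6% lower, against 35% and 35.6%, which is near the shares of all genes. Sco2 and Sco1, which deliver copper, were higher in CiLC than in MEF (0.66 and 0.40) and than in LC (0.48 and 0.66), whereas the copper carrier Cox17 was lower in CiLC than in LC (-0.84) and higher in LC than in MEF (1.08). Coa4 was higher in CiLC than in LC (0.67) and lower in LC than in MEF (-0.75). Higd1a, an oxygen-sensitive factor of complex IV and supercomplexes, stood out: 16.8 and 16.3 CPM in CiLC, 58.7 and 52.4 CPM in LC, and 11.1 and 11.5 CPM in MEF. As with Ndufa4l2, LC was far above the rest and CiLC slightly above MEF, with log2 fold changes of -1.74, 2.30 and 0.56 for CiLC over LC, LC over MEF and CiLC over MEF.

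Electron carriers and side entries feed and link the chain. Of 8 electron carriers and side entries, 6 were higher and none of the 8 lower in LC than in MEF, and 1 was higher and 5 lower in CiLC than in LC. These are 75% and 0%, against 35.7% and 35% of all genes, and 12.5% and 62.5%, against 35% and 35.6%. Cycs, cytochrome c, had 56 and 50.3 CPM in CiLC, 65.6 and 70.8 CPM in LC, and 47.9 and 47.1 CPM in MEF, and Cyc1, the cytochrome of complex III, had 46.9 and 49.9, 60 and 58.5, and 44.9 and 48 CPM. Sqor, which passes electrons from sulfide to the quinone pool, was lower in CiLC than in LC (-0.97) and higher in LC than in MEF (1.03). Gpd2, of the glycerol phosphate shuttle, was higher in CiLC than in both LC (0.24) and MEF (0.41).

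Among the 25 tested regulators of respiratory and mitochondrial genes, against MEF 6 were higher in CiLC and 5 lower, 11 higher and 4 lower in CiLC than in LC, and 5 higher and 12 lower in LC than in MEF. As shares these are 24% and 20%, 44% and 16%, and 20% and 48%. All genes gave 26.1% and 25.5%, 35% and 35.6%, and 35.7% and 35%, so the calls of CiLC over MEF were near the shares of all genes. Ppargc1a, a coactivator known to raise respiratory gene expression, had 3.05 and 2.59 CPM in CiLC, 0.58 and 0.353 CPM in LC, and 0.681 and 0.573 CPM in MEF. It was higher in CiLC than in MEF (log2 fold change 2.16, adjusted p = 5.82e-06) and than in LC (2.58, adjusted p = 8.42e-07), the reverse of the order of most subunits between CiLC and LC. LC and MEF overlapped (-0.42 for LC over MEF, adjusted p = 0.435). Its relative Ppargc1b was also highest in CiLC, and unlike Ppargc1a was called lower in LC than in MEF (-0.89, adjusted p = 7.25e-06), at 15.6 and 16.7 CPM in CiLC, 6.44 and 4.47 CPM in LC, and 10.1 CPM in both MEF libraries. Nrf1 was lower in both CiLC (-0.35) and LC (-0.33) than in MEF, while Gabpa was higher in CiLC than in either (0.29 over MEF, 0.16 over LC). The widest differences were those of Pparg, higher in CiLC than in LC (3.15) and lower in LC than in MEF (-2.30), and of Esrrg, lower in CiLC than in LC (-3.33) and higher in LC than in MEF (1.89) at under 1.5 CPM in every library. Polg2, a subunit of the mitochondrial DNA polymerase, was lower in CiLC than in MEF (-0.60).

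**Figure D5:**
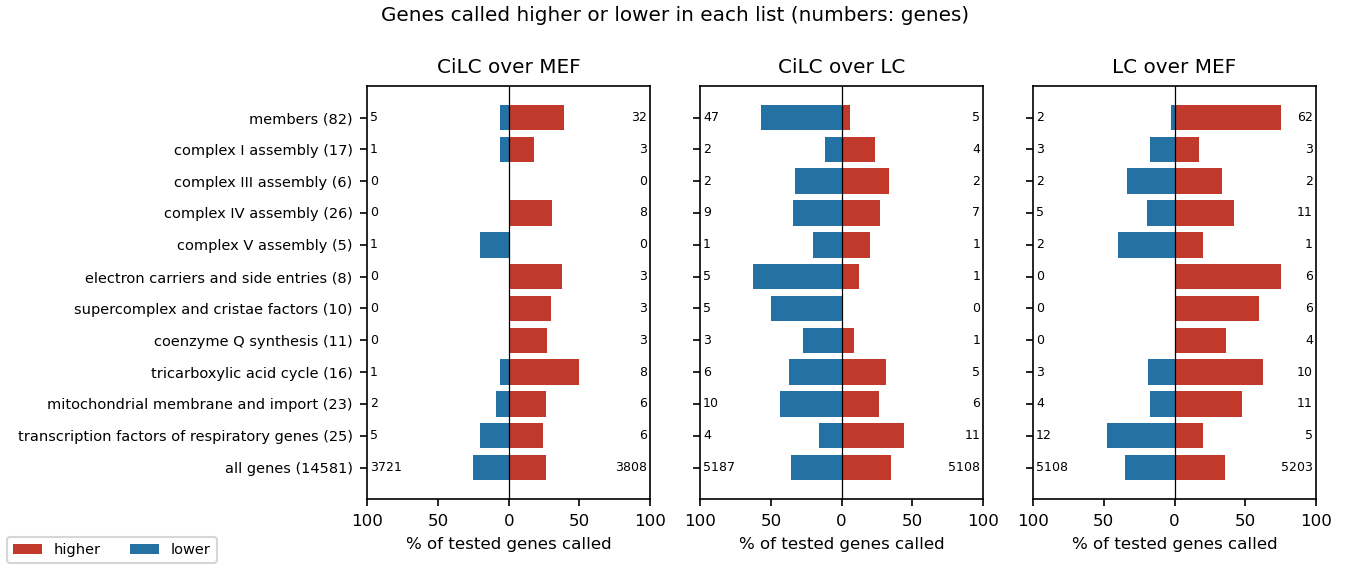
Share of the tested genes of each list called higher (red, right) or lower (blue, left) in CiLC over MEF, CiLC over LC and LC over MEF, with the number of genes at the ends and the number tested in brackets. Subunits, electron carriers and supercomplex and cristae factors lean to LC, and most assembly factor lists have calls in both directions or few calls. Those of complex IV in CiLC over MEF are an exception, with 8 higher and 0 lower of 26. The last row gives all genes.

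Some members are less certain than others. In 17 of the 87, at least 1 library had a value that was not whole within 0.01, as happens where reads are divided between genes; Atp5j, Atp5h, Atp5j2, Atp5pb, Uqcrc2, Ndufa13 and Ndufb4 had such values in all 6 libraries. Exons of 16 members overlap another counted gene, among them Ndufa4l2 with Shmt2, Atp5j with Gabpa, Atp5a1 with Haus1 and Atp5md with Taf5, and the strand setting of the counting is not given. Over the 67 tested members with whole values in every library, against MEF 26 were higher in CiLC and 3 lower, 4 and 40 in CiLC than in LC, and 53 and 2 in LC than in MEF. Besides the 3 complex IV isoforms named above, Ndufa11b and Ndufb4b, copies of Ndufa11 and Ndufb4, were not tested, with at most 5.02 reads in any library.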

How the data were processed

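RNA sequencing on a BGISEQ instrument measured gene expression in 6 libraries, 2 each of CiLC, LC and MEF, grouped and numbered by their titles. Per the file headers, the authors deposited expected counts (estimated reads) for each NCBI gene number, made from reads aligned with HISAT to mm9, per the submitters' processing notes. For the aligner version, counting tool, annotation and strand, the sources used here give nothing. Of the values of a library, 31.4% to 31.9% were not whole.

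Symbols were found by gene number for 18179 of 18305 genes in a RefSeq gene table of GRCm38.p6; the other 126 held 0.164% to 0.259% of the reads of a library. Transcript lengths are medians of the basic protein-coding transcripts of GENCODE M21 and were found for 85 of the 87 members. Levels between genes are compared as CPM per kb only. Among protein-coding genes of that RefSeq table with a symbol under the rule, 1, Ndufb1, was not matched to a row and is not analysed here.

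After rounding, edgeR 4.0.16 (R 4.3.3) was run on the counts: filterByExpr at min.count 10 and min.total.count 15 (14581 genes kept, 3724 removed), trimmed mean of M values (factors 0.916 to 1.07, also used for CPM, which are counts scaled by library total times factor), and 1 quasi-likelihood fit over 6 libraries with group as the only term. Tests were two-sided. The prior count behind log2 fold changes was 0.125, and errors are standard errors of the fit or the SD of 2 libraries. The fit's common biological coefficient of variation, 3.16%, is low. The chi-square per degree of freedom between the libraries of a group was 1.8 in CiLC, 2.97 in LC and 2.8 in MEF, above sampling noise, so both were kept. The script was tested on simulated data. Alternatives used limma 3.58.1, DESeq2 1.42.0 and other scalings, filters and assumed spreads. No sequence table of proteins was used, so the planned comparison of isoform proteins was left out. No p-value was computed over the members or a list, since members and lists were chosen with earlier results of these data known. Named genes were the isoforms and core subunits, up to 3 called members with the largest fold change per complex, comparison and direction, members under 1 CPM, and the largest called gene of each list of other mitochondrial genes; further genes were named after their values were seen. The values of 1 gene are not reported here; the sums and counts include it. The printed promoters, the length limit of 0.7 kb, the division into roles within a complex and the sum without Ndufa4l2 were also chosen after seeing the data.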

Additional observations from a re-analysis of the deposited data

How the results depend on the processing

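Of the sums, counts and medians recomputed under the alternatives, 200 values stayed the same within 1 SD or 1.5 times, 69 moved and 1 turned sign. With total counts the sum ratios of CiLC to MEF, CiLC to LC and LC to MEF were 1.13, 0.955 and 1.18 over all members, 1.1, 0.971 and 1.14 for complex I, 1.24, 1.13 and 1.1 for complex II, 1.15, 0.977 and 1.17 for complex III, 1.16, 0.85 and 1.36 for complex IV, and 1.11, 0.973 and 1.14 for complex V. The median of the members was then 0.01 for CiLC over LC, the value that turned sign, and 0.21 for LC over MEF; 1 member was lower in CiLC than in MEF, 13 were higher in CiLC than in LC and 22 lower, and 4 were lower in LC than in MEF. Single genes that turned sign under total counts are listed here only if called with scaling factors or with total counts. In CiLC over LC these were Ndufa10 (0.02), Ndufb9 (0.00), Ndufs5 (0.00), Ndufv1 (0.20), Sdhd (0.07), Uqcrb (0.13), Cox7c (0.03), Atp5a1 (0.12), Atp5j2 (0.04), Atp5l (0.08) and Atp5pb (0.04), and in LC over MEF Atp5o (-0.02). Others called in neither also crossed 0 in some setting, such as Sdhc in CiLC over LC (-0.12, up to 0.10). Quantile normalization turned Atp5a1 to 0.20 in CiLC over LC and -0.04 in LC over MEF, gave a median of 0.30 for LC over MEF and put 8 members higher in CiLC than in LC. Upper quartile factors gave 0.26 and 9 for the same quantities. The cause was not tested.

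An assumed biological coefficient of variation of 0.1 left 8 members higher in CiLC than in MEF and 1 lower, 1 and 22 in CiLC than in LC, and 41 and 1 in LC than in MEF, with 4205 genes called in the first comparison. A value of 0.4 left 0 and 0, 1 and 3, and 2 and 1, with 675, 2251 and 2508 genes called. DESeq2 called 21 members higher in CiLC than in MEF and 1 lower, 2 higher in CiLC than in LC and 1 lower in LC than in MEF. With no filter 3 members were lower in CiLC than in MEF, and with a mean of at least 5 CPM 1 was lower in LC than in MEF. Over genes with whole values, fewer of which exist, 4576, 6225 and 6225 genes were called in CiLC over MEF, CiLC over LC and LC over MEF; sum ratios over such members were 0.801 and 1.31 for complex I and 0.885 and 1.24 for complex III in CiLC over LC and LC over MEF, and 0.801 for complex V in CiLC over LC.

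With 1 library left out, members higher numbered 22 to 32 in CiLC over MEF, 2 to 6 in CiLC over LC and 54 to 63 in LC over MEF, and members lower 1 to 4, 33 to 49 and 1 to 2. The medians ranged from 0.09 to 0.13, from -0.24 to -0.16 and from 0.31 to 0.40, and the genes called from 6127 to 7437, from 9333 to 10488 and from 9411 to 10314. Called members that kept their call without each library in turn were 19 of 32 higher and 0 of 5 lower in CiLC over MEF, 2 of 5 and 29 of 47 in CiLC over LC, and 51 of 62 and 1 of 2 in LC over MEF. Where 1 library remained in a group, it is assumed to vary like the others.

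No pairing by replicate number was seen: deviations of libraries with the same number correlated at -0.08 for CiLC and LC, 0.10 for CiLC and MEF, and -0.01 for LC and MEF. With only 2 libraries in each group, these values cannot tell if the numbers mark shared cultures or batches. With the replicate block, against MEF 31 were higher in CiLC and 5 lower, 5 and 47 in CiLC than in LC, and 62 and 2 in LC than in MEF.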

Other observations

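Other lists of mitochondrial genes differed in whether their calls ran in 1 direction or both. Of 16 tested genes of the tricarboxylic acid cycle, against MEF 8 were higher in CiLC and 1 lower, 5 higher and 6 lower in CiLC than in LC, and 10 higher and 3 lower in LC than in MEF. As shares these are 50% and 6.25%, 31.2% and 37.5%, and 62.5% and 18.8%. All genes gave 26.1% and 25.5%, 35% and 35.6%, and 35.7% and 35%, so the calls of CiLC over LC were near the shares of all genes. Mdh2, mitochondrial malate dehydrogenase, had 110 and 121 CPM in CiLC, 191 and 187 CPM in LC, and 119 and 116 CPM in MEF, whereas Fh1, fumarase, had 32.7 and 34.4 CPM in CiLC, 30.6 and 29.7 CPM in LC, and 42.6 CPM in both MEF libraries. Dlat, of pyruvate dehydrogenase, was higher in CiLC than in LC (log2 fold change 0.56), and Sucla2, of succinyl-CoA ligase, was higher in CiLC than in MEF (0.35). Among 11 genes of coenzyme Q synthesis, against MEF 3 were higher in CiLC and none of the 11 lower, 1 higher and 3 lower in CiLC than in LC, and 4 higher and none lower in LC than in MEF. The higher calls over MEF, 27.3% in CiLC and 36.4% in LC, were near the 26.1% and 35.7% of all genes. Against LC, 9.09% were higher in CiLC and 27.3% lower, where all genes gave 35% and 35.6%. Coq8a, a kinase-like protein of that pathway, had 6.26 and 5.83 CPM in CiLC, 20.4 and 18.5 CPM in LC, and 2.46 and 2.71 CPM in MEF, and Coq3 was higher in CiLC than in LC (0.34).

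Of 23 genes of the mitochondrial membranes and import, against MEF 6 were higher in CiLC and 2 lower, 6 higher and 10 lower in CiLC than in LC, and 11 higher and 4 lower in LC than in MEF. As shares these are 26.1% and 8.7%, 26.1% and 43.5%, and 47.8% and 17.4%. All genes gave 26.1% and 25.5%, 35% and 35.6%, and 35.7% and 35%, so higher calls over MEF were no more frequent in CiLC than over all genes. Vdac1, the outer membrane channel, had 118 and 122 CPM in CiLC, 253 and 237 CPM in LC, and 126 and 122 CPM in MEF. Lonp1, the matrix protease, had 81.3 and 82.2 CPM in CiLC, 189 and 181 CPM in LC, and 75.1 and 83.4 CPM in MEF. The import genes Tomm20 and Timm50 ran otherwise: Tomm20 was higher in CiLC than in LC (0.26), and Timm50 was lower in CiLC (-0.23) and in LC (-0.37) than in MEF. Mfn1, which fuses outer membranes, was higher in CiLC than in MEF (0.30). Of 10 supercomplex and cristae genes, 3 were higher in CiLC than in MEF, 5 lower in CiLC than in LC and 6 higher in LC than in MEF, with no call in the opposite direction among the 10. These are 30%, 50% and 60%, against 26.1%, 35.6% and 35.7% of all genes. A further list held subunits outside the symbol rule together with related factors such as the inhibitor Atpif1. Of its 5 tested genes, 1 was higher and none of the 5 lower in CiLC over MEF, and 1 higher and 1 lower in CiLC over LC (median 0.09). In LC over MEF, 2 were higher and 2 lower (median -0.00), or 40% each way, against 35.7% and 35% of all genes. These counts do not describe subunits alone. Cyc1, of complex III, was lower in CiLC than in LC (-0.29) and higher in LC than in MEF (0.35). Ndufab1, the acyl carrier protein, was higher in CiLC than in MEF (0.19), and Dmac2l was lower in LC than in MEF (-0.57).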
